A study of Mus musculus with 12 samples.

Results

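The genes described here are the transcription factors that carry the canonical Wnt signal in the nucleus and genes long used as its readouts: Lef1, Tcf7, Tcf7l2, Axin2, Apcdd1, Znrf3, Ccnd1, Myc, Cd44 and Sox9. Every probe set that the array's annotation gives to one of these 10 genes alone was taken, by symbol, alias or Entrez ID. That found 27 of 45037 non-control probe sets, for 9 of the 10 genes. No probe set is named to Tcf7 alone in the annotation used here, so Tcf7 was not analysed here. Of the 27 probe sets, 19 had a mean log2 value over all 12 arrays at or above 5.55, the median of all probe sets, and were tested, at least 1 for each of the 9 genes. The other 8 had means of 2.71 to 5.08 and are described beside their genes.

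In the absence of a Wnt ligand, a complex built on the scaffold proteins APC and AXIN holds beta-catenin for phosphorylation and destruction. When the complex fails, as it does in most colorectal tumours through loss of APC, beta-catenin accumulates and binds the TCF/LEF proteins on DNA, which then switch target genes on. Several of those targets, among them Axin2, Znrf3 and Apcdd1, encode proteins that dampen the same pathway, so their RNA is widely read as a gauge of its activity in the intestine.

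The tumours came from MC38, a mouse colon carcinoma line, carrying a hairpin against Tdo2 that doxycycline (Dox) switches on, and either with Apc deleted (APC-KO) or intact (APC-WT). Cells were placed in the cecum of C57BL/6 mice, and 3 tumours were profiled on Affymetrix arrays in each of 4 groups: APC-KO with Dox water, APC-KO without Dox, APC-WT with Dox water and APC-WT without Dox. All 4 groups carry the hairpin, so effects of the drug and of the hairpin cannot be told apart. The number of clones behind each line, the deleted stretch of Apc and the age of the mice are not stated in the labels. Nor do the labels state whether each tumour was a mouse of its own, so the p-values speak to the spread among 3 tumour samples, part of which could be technical.

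Apc was read first as a check of the labels, and 3 of its 4 probe sets were tested. Probe set 1435543_at read 6.74, 6.83 and 6.81 in APC-KO Dox tumours and 7.02, 6.75 and 6.82 in APC-KO no Dox tumours. It read 7.70, 7.78 and 7.73 in APC-WT Dox tumours and 7.84, 7.70 and 7.57 in APC-WT no Dox tumours. It was lower in APC-KO in both Dox states, by -0.94 ± 0.09 with Dox and -0.84 ± 0.09 without (limma, adjusted p 5.1e-06 and 1.48e-05). The brightest, 1420956_at, differed less, by -0.24 ± 0.07 with Dox (adjusted p 0.0252), and without Dox the genotypes overlapped and it did not pass, at -0.10 ± 0.07 (adjusted p 0.293). Probe set 1450056_at was lower by -0.49 ± 0.11 with Dox and -0.41 ± 0.11 without (adjusted p 0.00483 and 0.0126), and 1420957_at lay under the filter at a mean of 3.13. The deleted stretch is not stated in the labels, and a probe set outside it may not report the deletion. RNA of host cells was measured with that of the tumour cells. The 3 probe sets of Tdo2, 1419093_at, 1455770_at and 1449337_at, lay at means of 2.59, 3.12 and 3.85, all under 5.55, so these arrays do not show whether the hairpin lowered its target. Array medians ran from 5.53 to 5.58, and arrays of 1 group correlated at 0.995 to 0.998 across probe sets. Of 10 markers of colon epithelium, 6 (Krt18, Krt19, Krt20, Vil1, Muc2 and Car1) lay under 5.55 on every array, although the line is labelled as colon carcinoma.

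TCF and LEF proteins bind DNA through a short core word, so the letters just before an annotated start are shown for Axin2, Lef1 and Tcf7l2. RefSeq (GRCm38.p6) windows of 250 bases ending at an annotated start were matched for 5 of the 10 genes: Axin2, Lef1, Tcf7, Tcf7l2 and Cd44, with 10 windows between them. Both strands were searched for the 7-letter word CTTTGNN in which each N is A or T. The word stood in 2 of the 10 windows, against 4874 of all 32851 windows (14.8%). The Axin2 window lies at chr11:108920099-108920348, the first Lef1 window at chr3:131110047-131110296, the last Lef1 window at chr3:131156044-131156293 and the second Tcf7l2 window at chr19:55895071-55895320, all on the plus strand. They are printed 5′ to 3′ with the match in capitals.
Axin2: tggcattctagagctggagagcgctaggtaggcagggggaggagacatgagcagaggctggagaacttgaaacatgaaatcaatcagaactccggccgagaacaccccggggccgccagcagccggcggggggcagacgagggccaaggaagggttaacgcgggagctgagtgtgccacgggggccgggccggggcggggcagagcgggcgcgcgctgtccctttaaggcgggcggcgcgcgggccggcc
Lef1 first window: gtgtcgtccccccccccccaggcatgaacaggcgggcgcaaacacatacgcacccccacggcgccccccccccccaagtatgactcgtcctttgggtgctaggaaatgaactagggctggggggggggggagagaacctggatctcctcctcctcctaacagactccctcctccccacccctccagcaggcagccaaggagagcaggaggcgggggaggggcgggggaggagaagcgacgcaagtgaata
Lef1 last window: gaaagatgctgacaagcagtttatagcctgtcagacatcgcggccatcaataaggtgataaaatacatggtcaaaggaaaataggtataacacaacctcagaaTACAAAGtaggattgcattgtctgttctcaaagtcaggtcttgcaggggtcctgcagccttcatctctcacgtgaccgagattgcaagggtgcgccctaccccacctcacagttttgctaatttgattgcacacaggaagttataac
Tcf7l2 second window: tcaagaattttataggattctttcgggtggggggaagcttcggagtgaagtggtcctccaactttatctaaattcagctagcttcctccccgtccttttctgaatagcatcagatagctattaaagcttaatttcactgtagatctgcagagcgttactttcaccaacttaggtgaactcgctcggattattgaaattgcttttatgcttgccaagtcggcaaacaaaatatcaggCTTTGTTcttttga
In the last Lef1 window the word read TACAAAG, which is CTTTGTA on the other strand, 147 bases before that start. In the second Tcf7l2 window it read CTTTGTT, 14 bases before the start. The windows of Axin2 and of the first Lef1 start did not hold it, which says only that these letters are not in these stretches. The arrays do not show which start a transcript used.

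Lef1, the lymphoid enhancer factor that is both a partner of beta-catenin and one of its target genes, was higher in APC-KO tumours than in the APC-WT ones whether or not Dox had been given. Its probe set 1454734_at read 7.18, 7.19 and 7.40 in APC-KO Dox tumours and 6.76, 6.75 and 6.82 in APC-WT Dox tumours. Without Dox it read 7.12, 6.90 and 7.04 in APC-KO and 6.72, 6.47 and 6.69 in APC-WT tumours. Every APC-KO tumour lay above every APC-WT tumour in both Dox states. On the log2 scale the difference was 0.48 ± 0.09 with Dox (95% interval 0.29 to 0.67, 1.39-fold, limma adjusted p 0.00217) and 0.39 ± 0.09 without (0.20 to 0.59, 1.31-fold, adjusted p 0.00634). In bulk tumours, more RNA per cell and more cells that hold the RNA cannot be told apart.

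The second Lef1 probe set, 1421299_a_at, had a mean of 4.65 and was left out of the tests by the filter. It lay in the same direction: it read 4.84, 4.78 and 4.89 in APC-KO Dox against 4.72, 4.51 and 4.56 in APC-WT Dox tumours, and 4.95, 4.59 and 4.73 in APC-KO no Dox against 4.48, 4.21 and 4.50 in APC-WT no Dox tumours. All 12 values lay under 5.55, so no size is given for the difference; fitted with no filter, the adjusted p was 0.23 with Dox and 0.0476 without. Lef1 is also a gene of T cells, whose markers ran the other way. Over all tested genes, by the brightest probe set of each, 19.9% passed with Dox and 24.9% without. Of 8 tested T cell markers, 5 were lower and 0 higher in APC-KO with Dox and 7 were lower and 0 higher without, with medians of -0.55 and -0.76. Their summed linear signal was 530 to 808 in APC-KO Dox against 785 to 1029 in APC-WT Dox tumours, and 704 to 735 in APC-KO no Dox against 1040 to 1370 in APC-WT no Dox tumours, with Cd28 under 5.55 on every array. The part of these cells in the Lef1 signal was not tested.

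Tcf7l2 encodes TCF4, the main TCF of the intestinal epithelium, and none of its 3 tested probe sets passed between the genotypes without Dox. Its brightest probe set, 1429428_at, read 8.21, 8.32 and 8.20 in APC-KO no Dox and 8.43, 8.36 and 7.98 in APC-WT no Dox tumours, a difference of -0.02 ± 0.10 (-0.22 to 0.19, adjusted p 0.93). With Dox it read 8.20, 8.32 and 8.25 in APC-KO and 7.99, 8.00 and 8.01 in APC-WT tumours, without overlap, yet the difference of 0.25 ± 0.10 did not pass (adjusted p 0.0821). The other 2 tested probe sets passed with Dox.

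The first of them, 1429427_s_at, read 7.46, 7.79 and 7.61 in APC-KO Dox and 7.33, 7.19 and 7.27 in APC-WT Dox tumours, a difference of 0.36 ± 0.12 (limma adjusted p 0.0478). Probe set 1425229_a_at read 6.20, 6.35 and 6.10 in APC-KO Dox and 6.05, 5.80 and 5.84 in APC-WT Dox tumours, a difference of 0.32 ± 0.10 (adjusted p 0.0442). Without Dox they stood at 0.00 ± 0.12 and 0.04 ± 0.10. All 3 probe sets therefore had their lowest group mean in APC-WT Dox tumours. Both calls are near the threshold. That of 1425229_a_at was lost with no filter and without replicate 2 or 3 of APC-WT Dox, any replicate of APC-KO no Dox or replicate 1 or 2 of APC-KO Dox (adjusted p up to 0.173). That of 1429427_s_at was lost with no filter, with no trend in eBayes and without replicate 1 of APC-WT no Dox, any replicate of APC-WT Dox or APC-KO no Dox, or replicate 2 or 3 of APC-KO Dox (adjusted p up to 0.187). The brightest probe set passed instead with array weights, with only the groups compared, and without replicate 3 of APC-WT no Dox (adjusted p down to 0.011). The fourth probe set, 1426639_a_at, lay under the filter at a mean of 4.97. Over all tested genes, by the brightest probe set of each, 19.9% passed with Dox. Markers of colon epithelium moved in the same comparison in part, with 1 of 3 tested markers higher and 0 lower with Dox. Their summed signal was 512 to 830 in APC-KO Dox and 968 to 1106 in APC-WT Dox tumours, and their part in the Tcf7l2 values was not tested.

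**Figure D1:**
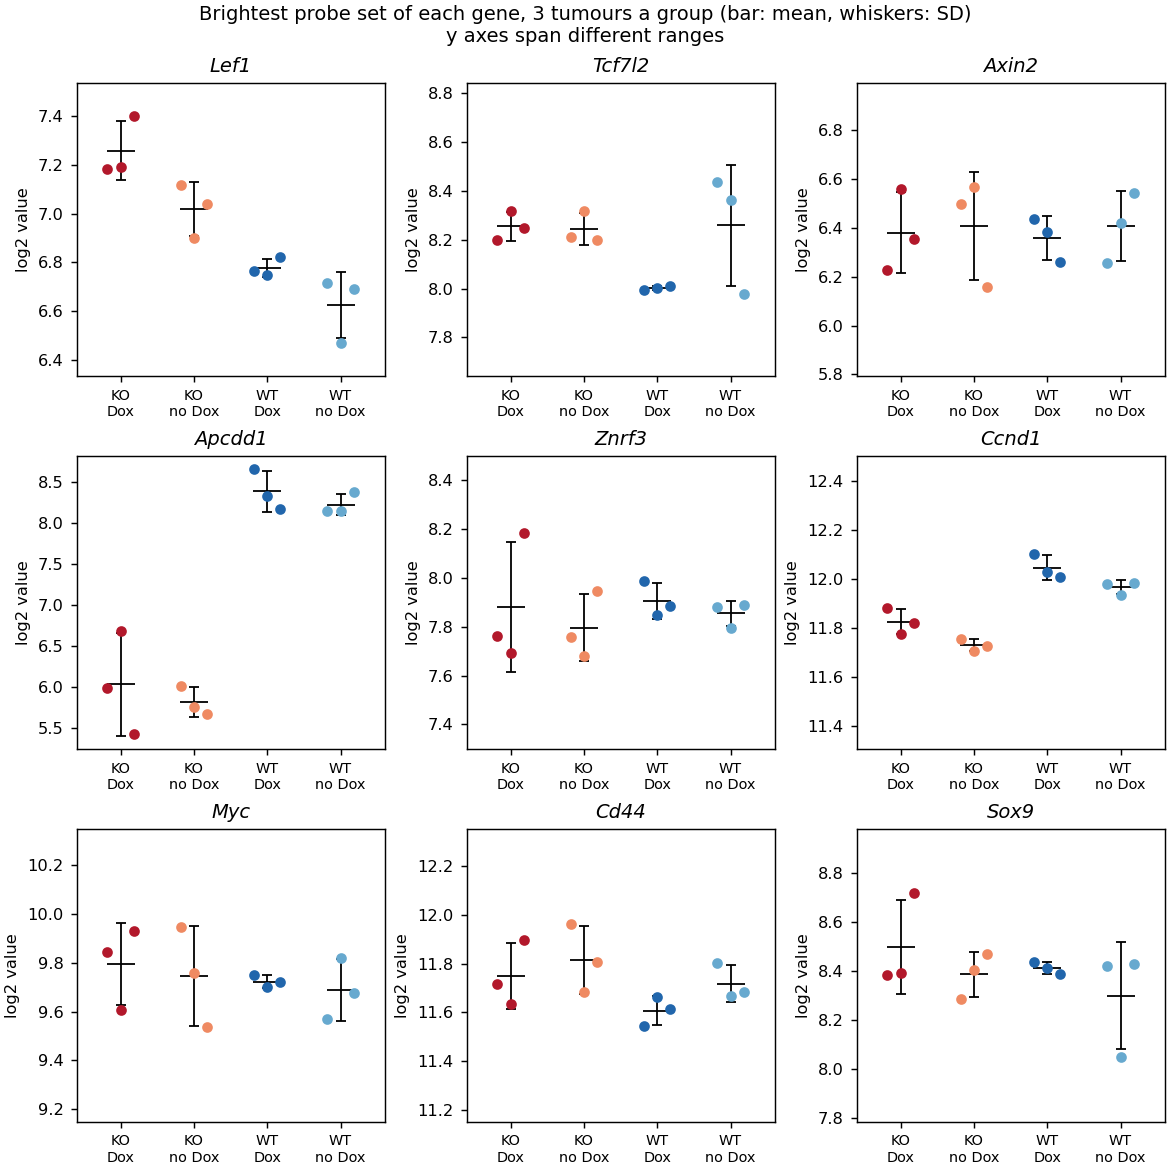
Log2 values of the brightest probe set of each of the 9 measured genes, with 1 point a tumour, the bar at the group mean and whiskers of 1 SD (n = 3). Columns run from APC-KO Dox to APC-WT no Dox and the y axes span different ranges. Lef1 stands higher and Apcdd1 and Ccnd1 lower in all 6 APC-KO tumours, while Axin2, Znrf3 and Myc overlap between genotypes.

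The genes that feed back on the pathway did not move together. Axin2, whose product rebuilds the destruction complex and which is the most used single readout of Wnt signalling, overlapped among all 4 groups and did not pass in any comparison. Its probe set 1436845_at read 6.23, 6.56 and 6.36 in APC-KO Dox, 6.50, 6.57 and 6.16 in APC-KO no Dox, 6.43, 6.38 and 6.26 in APC-WT Dox, and 6.26, 6.42 and 6.54 in APC-WT no Dox tumours. The genotype difference was 0.02 ± 0.12 with Dox (-0.23 to 0.28, limma adjusted p 0.925) and 0.00 ± 0.12 without (-0.25 to 0.26, adjusted p 0.994). Averaged over the Dox states it was 0.01 ± 0.08, with an interval of -0.17 to 0.19. The other Axin2 probe set, 1421341_at, lay at a mean of 2.98, well under the filter.

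Znrf3 encodes a membrane ubiquitin ligase that removes the Frizzled receptors of Wnt ligands from the cell surface. Its probe set 1435608_at read 7.76, 7.69 and 8.18 in APC-KO Dox and 7.99, 7.85 and 7.88 in APC-WT Dox tumours, and 7.76, 7.68 and 7.95 in APC-KO no Dox and 7.88, 7.80 and 7.89 in APC-WT no Dox tumours. The groups overlapped throughout, at -0.03 ± 0.11 with Dox (-0.26 to 0.21, adjusted p 0.901) and -0.06 ± 0.11 without (-0.30 to 0.18, adjusted p 0.744). Its dimmer probe set, 1437646_at, had a mean of 5.08.

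Apcdd1, whose membrane protein binds Wnt ligands and their co-receptors and blocks them, and whose human name comes from its fall when APC was restored in colon cancer cells, showed by far the largest difference of the 9 genes, and it was lower in APC-KO. Its brightest probe set, 1449070_x_at, read 5.99, 6.69 and 5.43 in APC-KO Dox and 8.66, 8.33 and 8.18 in APC-WT Dox tumours. Without Dox it read 6.02, 5.76 and 5.67 in APC-KO and 8.15, 8.15 and 8.37 in APC-WT tumours. The lowest APC-WT tumour stood well above the highest APC-KO tumour. The difference was -2.35 ± 0.23 with Dox (5.11-fold lower, limma adjusted p 7.92e-06) and -2.41 ± 0.23 without (5.32-fold lower, adjusted p 6.18e-06). The size with Dox rests in part on 1 APC-KO array under 5.55, at 5.43.

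Of the other 5 Apcdd1 probe sets, 4 ran the same way. Probe set 1418382_at read 5.14, 5.85 and 4.85 in APC-KO Dox against 7.68, 7.19 and 7.24 in APC-WT Dox tumours, and 5.19, 5.22 and 4.94 in APC-KO no Dox against 6.87, 7.07 and 7.05 in APC-WT no Dox tumours. It differed by -2.09 ± 0.20 with Dox, a size that rests in part on the 2 APC-KO Dox arrays under 5.55. Without Dox all 3 APC-KO arrays lay under 5.55, so the fall there is at least 2.72-fold, taken from the APC-WT mean against 5.55. The same holds for 1454822_x_at, at least 3.09-fold lower without Dox and at -2.43 ± 0.32 with Dox (adjusted p 0.00022 and 0.000135). With Dox it read 4.35, 6.20 and 4.65 in APC-KO tumours, so that size also rests in part on values under 5.55. Probe set 1437604_x_at moved less, by -0.44 ± 0.10 with Dox and -0.43 ± 0.10 without (adjusted p 0.00508 and 0.00531). The dim 1418383_at, at a mean of 4.91, read 4.09, 4.75 and 4.12 in APC-KO Dox against 6.03, 5.52 and 5.74 in APC-WT Dox tumours, and 4.04, 3.94 and 4.14 in APC-KO no Dox against 5.49, 5.50 and 5.60 in APC-WT no Dox tumours. The genotypes did not overlap, but all APC-KO arrays lay under 5.55, so no size is given. The dimmest, 1443639_at, lay under 5.55 on every array, at a mean of 3.17.

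Within APC-KO Dox, replicate 2 had the highest value on 4 of the 6 probe sets, which widened that group's SD to 0.63 on 1449070_x_at and 0.99 on 1454822_x_at, against 0.18 and 0.16 in APC-KO no Dox tumours. No Apcdd1 call was lost under any alternative in which the probe set was tested. For 1418382_at and 1454822_x_at this says little, since only their APC-WT values took them past the filter. Marker lists moved in the same comparisons, in which 19.9% of all tested genes passed with Dox and 24.9% without, by the brightest probe set. The T cell markers given above were lower in APC-KO, 5 of 8 with Dox and 7 of 8 without. The summed signal of the colon epithelium list was also lower, at 512 to 830 in APC-KO Dox against 968 to 1106 in APC-WT Dox tumours, and at 910 to 1418 in APC-KO no Dox against 1433 to 3562 in APC-WT no Dox tumours, although of its 3 tested markers 1 was higher and 0 lower with Dox and 0 higher and 1 lower without. With Dox 3 of 8 fibroblast and 2 of 5 endothelial markers were higher in APC-KO and 0 and 1 lower, and without Dox the counts were 1 higher and 1 lower and 0 and 0. The part of these cells in the Apcdd1 signal was not tested. Genes next to Apcdd1 in RefSeq's order (GRCm38.p6) were looked up after its values had been seen. Among the 4 nearest tested genes on either side, differences ran from -0.21 to 0.20 with Dox and from -0.23 to 0.35 without. The closest were Fbxo38, at -0.16 ± 0.06 and -0.15 ± 0.06, and Napg, at -0.21 ± 0.07 and -0.23 ± 0.07, of which Napg passed in both states (adjusted p 0.0373 and 0.0226).

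**Figure D2:**
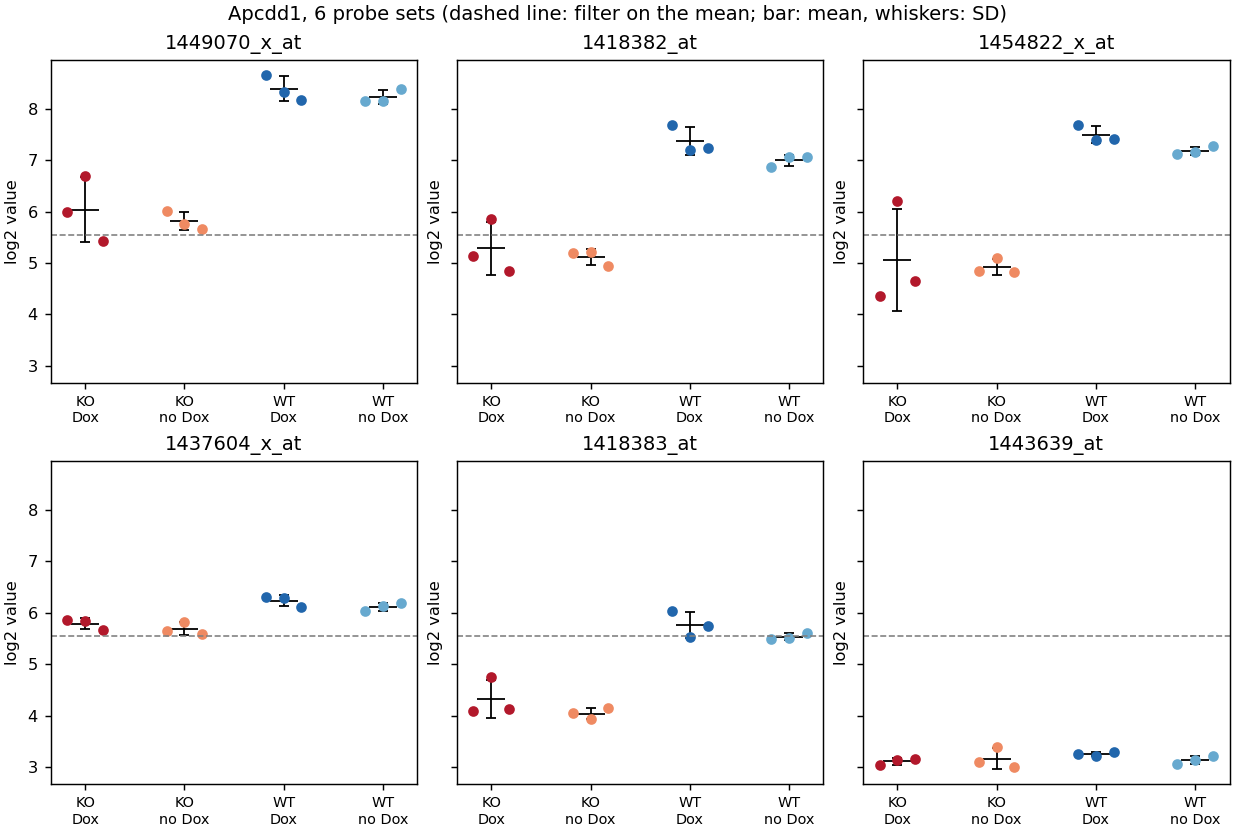
Log2 values of all 6 Apcdd1 probe sets on 1 common y axis, with 1 point a tumour, bars at group means, whiskers of 1 SD (n = 3) and the filter of 5.55 as a dashed line. In 5 panels the APC-KO tumours lie below the APC-WT tumours, in part under the dashed line, and 1443639_at lies near 3 in all groups.

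Ccnd1 encodes cyclin D1, which drives cells from G1 into S phase and is a classical target of beta-catenin, and it was slightly lower in APC-KO. Its brightest probe set, 1417420_at, read 11.88, 11.78 and 11.82 in APC-KO Dox against 12.10, 12.03 and 12.01 in APC-WT Dox tumours, and 11.76, 11.71 and 11.72 in APC-KO no Dox against 11.98, 11.93 and 11.98 in APC-WT no Dox tumours. The groups did not overlap in either Dox state, and the 3 values of a group spanned at most 0.105. The difference was -0.22 ± 0.04 with Dox (1.16-fold lower, limma adjusted p 0.0021) and -0.24 ± 0.04 without (1.18-fold lower, adjusted p 0.00106). The other 2 probe sets pointed the same way. Probe set 1448698_at stood at -0.31 ± 0.07 with Dox and -0.25 ± 0.07 without (adjusted p 0.00473 and 0.014), and 1417419_at at -0.33 ± 0.08 and -0.16 ± 0.08 (adjusted p 0.0123 and 0.172). Among 9 tested proliferation markers, 2 were higher and 0 lower in APC-KO with Dox, and 0 higher and 1 lower without. Counted by the brightest probe set, 19.9% of all tested genes passed with Dox and 24.9% without, so both counts lie near or below the background.

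The call of 1448698_at without Dox was lost without replicate 3 of APC-WT no Dox or replicates 2 or 3 of APC-KO no Dox, with an adjusted p of up to 0.0593, and 1417419_at passed there without replicate 2 of APC-WT no Dox (adjusted p 0.034). Ccnd2, a sister cyclin with the same partner kinases, ran opposite to Ccnd1. Its probe set 1416122_at read 9.78, 9.70 and 9.69 in APC-KO Dox against 8.67, 8.94 and 8.89 in APC-WT Dox tumours, and 9.73, 9.12 and 9.76 in APC-KO no Dox against 9.19, 9.02 and 8.90 in APC-WT no Dox tumours. It was higher by 0.89 ± 0.14 with Dox (adjusted p 0.000523) and 0.50 ± 0.14 without (adjusted p 0.0172). The call without Dox was lost without replicate 3 of APC-WT no Dox or replicates 1 or 3 of APC-KO no Dox.

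Myc, the growth-promoting transcription factor that was among the first targets assigned to APC loss in colorectal cells, did not pass in either Dox state. Its probe set 1424942_a_at read 9.84, 9.61 and 9.93 in APC-KO Dox, 9.95, 9.76 and 9.54 in APC-KO no Dox, 9.75, 9.70 and 9.72 in APC-WT Dox, and 9.57, 9.82 and 9.67 in APC-WT no Dox tumours. All 4 groups overlapped, and the difference was 0.07 ± 0.10 with Dox (-0.15 to 0.29, adjusted p 0.67) and 0.06 ± 0.10 without (-0.16 to 0.28, adjusted p 0.721).

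Cd44 encodes a hyaluronan receptor of crypt base cells that tumour, stromal and immune cells also carry, and 1 of its 3 tested probe sets passed, without Dox. The brightest, 1434376_at, read 11.71, 11.63 and 11.90 in APC-KO Dox against 11.54, 11.66 and 11.61 in APC-WT Dox tumours, and 11.96, 11.68 and 11.81 in APC-KO no Dox against 11.80, 11.67 and 11.68 in APC-WT no Dox tumours. It did not pass, at 0.14 ± 0.07 with Dox and 0.10 ± 0.07 without (adjusted p 0.207 and 0.369). Probe set 1423760_at was at 0.04 ± 0.07 and 0.07 ± 0.07.

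Probe set 1452483_a_at of Cd44 passed without Dox alone. It read 9.49, 9.26 and 9.36 in APC-KO no Dox and 9.09, 8.91 and 9.14 in APC-WT no Dox tumours, 0.32 ± 0.10 apart (adjusted p 0.0263). With Dox it read 9.27, 8.95 and 9.26 in APC-KO and 9.06, 9.06 and 9.24 in APC-WT tumours, 0.04 ± 0.10 apart (adjusted p 0.831). The difference between these differences did not pass, at -0.28 ± 0.14 (adjusted p 0.437). The call was lost without replicate 2 of APC-WT no Dox or replicates 1 or 3 of APC-KO no Dox, with an adjusted p of up to 0.11. Macrophage markers, which mark cells that carry CD44, had 1 of 7 higher and 0 lower in the comparison without Dox, and neutrophil markers 3 of 3 higher. Of all tested genes 24.9% passed there by the brightest probe set. The summed neutrophil signal was 491 to 1836 in APC-KO no Dox and 165 to 321 in APC-WT no Dox tumours, and its part in the Cd44 signal was not tested. The fourth probe set, 1443265_at, lay at a mean of 2.71.

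Sox9, a transcription factor of crypt progenitors and Paneth cells, was slightly higher in APC-KO on 1 of its 2 tested probe sets. Probe set 1451538_at read 8.29, 8.23 and 8.36 in APC-KO Dox against 8.10, 8.12 and 8.15 in APC-WT Dox tumours, and 8.19, 8.27 and 8.36 in APC-KO no Dox against 8.08, 7.80 and 8.11 in APC-WT no Dox tumours. No APC-KO value reached down to an APC-WT value in either Dox state. The difference was 0.17 ± 0.08 with Dox (adjusted p 0.171) and 0.28 ± 0.08 without (adjusted p 0.0246), and 0.22 ± 0.06 averaged over both (adjusted p 0.00852). The brighter 1424950_at was at 0.09 ± 0.11 in each Dox state (adjusted p 0.628 and 0.606). The call without Dox was lost when only the 2 groups compared were fitted, and without replicate 2 of APC-WT no Dox or replicates 2 or 3 of APC-KO no Dox, with an adjusted p of up to 0.113. The remaining probe set, 1433889_at, had a mean of 3.71.

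Counted together, 10 of the 19 tested probe sets passed between the genotypes with Dox, 3 higher and 7 lower in APC-KO, for 4 of the 9 genes. Over all tested probe sets 19.6% passed in that comparison, 10.8% higher and 8.83% lower. Without Dox 9 of 19 passed, 3 higher and 6 lower, for 5 genes, against 24.1% of all tested probe sets, 12.6% higher and 11.6% lower. Averaged over the Dox states 9 of 19 passed, 2 higher and 7 lower, against 35.1% (18.9% higher and 16.2% lower). Probe sets of a gene share their target, and Apcdd1 alone gave 4 of the lower calls in each Dox state. Apcdd1 probe sets 1418382_at and 1454822_x_at had group means under 5.55 in APC-KO tumours with and without Dox. It was their APC-WT values that took their overall means past the filter, so their lower calls were countable only through the group where they are high. By the brightest probe set of each gene the count was 3 of 9 in each of these comparisons, Lef1 higher and Apcdd1 and Ccnd1 lower, against 19.9% of 11070 genes with Dox, 24.9% without and 36.5% averaged. Counted that way the members' share lies near the background. Members were chosen with earlier results of these data known, so these counts do not test whether members exceed the background. The values of the 2 genotypes did not overlap for 12 of the 19 probe sets with Dox and 8 without, against 40.8% and 36.2% of all tested probe sets.

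**Figure D3:**
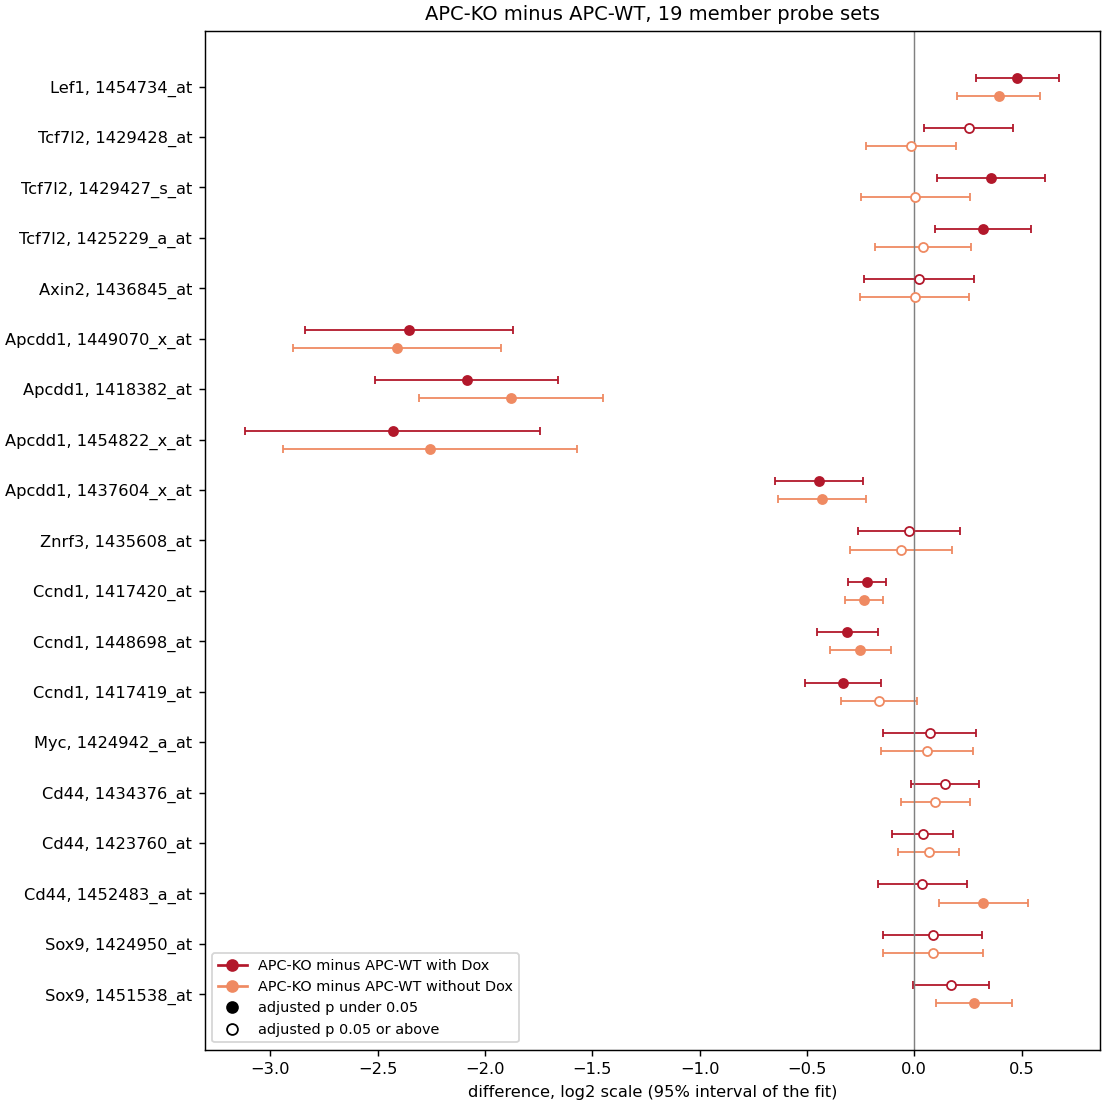
APC-KO minus APC-WT differences on the log2 scale for the 19 tested probe sets, with Dox (dark) and without (light), with 95% intervals of the fit and filled points where the adjusted p was under 0.05. The Apcdd1 probe sets lie far to the left, Lef1 to the right of 0 in both Dox states, and the 3 Tcf7l2 probe sets to the right with Dox and at 0 without.

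Dox was not followed by a change that passed in any member. In APC-KO tumours 0 of 19 probe sets passed in limma, with 3 at an unadjusted p under 0.05. Of all tested probe sets 0.582% passed there and 13.3% had an unadjusted p under 0.05. In APC-WT tumours 0 passed, with 2 at an unadjusted p under 0.05, against 0.0355% and 14.3% of all. The groups with and without Dox did not overlap for 2 of the 19 probe sets in APC-KO and 5 in APC-WT tumours, against 17.7% and 19.9% of all tested probe sets.

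Among tested member probe sets, only Lef1 by 1454734_at and Ccnd1 by 1417420_at separated Dox from no Dox tumours without overlap in both genotypes. Lef1 was at 0.24 ± 0.09 with Dox in APC-KO (adjusted p 0.276) and 0.15 ± 0.09 in APC-WT tumours (adjusted p 0.466). Ccnd1 by 1417420_at was at 0.10 ± 0.04 in APC-KO (adjusted p 0.332) and 0.08 ± 0.04 in APC-WT tumours (adjusted p 0.394). Neither passed, and the values are those given above. The other Ccnd1 probe sets, 1448698_at and 1417419_at, overlapped in both genotypes. They were at 0.04 ± 0.07 and -0.04 ± 0.08 in APC-KO and at 0.10 ± 0.07 and 0.13 ± 0.08 in APC-WT tumours. The third probe set with an unadjusted p under 0.05 in APC-KO tumours was Cd44 by 1452483_a_at, at -0.21 ± 0.10 (adjusted p 0.358).

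In APC-WT tumours the 2 with an unadjusted p under 0.05 were probe sets of Tcf7l2, both lower with Dox. Probe set 1429428_at read 7.99, 8.00 and 8.01 in APC-WT Dox and 8.43, 8.36 and 7.98 in APC-WT no Dox tumours, and 1429427_s_at read 7.33, 7.19 and 7.27 in APC-WT Dox and 7.66, 7.80 and 7.26 in APC-WT no Dox tumours. In both, replicate 3 of the no Dox group sat with the Dox tumours and the other replicates above them. The differences were -0.26 ± 0.10 and -0.31 ± 0.12 (adjusted p 0.254 and 0.26). Without that array both passed, with adjusted p of 0.0159 and 0.0254, as they did with array quality weights. Over all 22519 tested probe sets 705 passed without that array and 1071 with the weights, against 8 in the main fit. Under other alternatives the adjusted p of these probe sets rose to 0.584 and 0.63. In APC-KO tumours the same probe sets were at 0.01 ± 0.10 and 0.04 ± 0.12. The summed colon epithelium signal was 968 to 1106 in APC-WT Dox and 1433 to 3562 in APC-WT no Dox tumours, with 0 of 3 tested markers past the threshold, and its part in the Tcf7l2 values was not tested.

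Whether Dox acted differently in the genotypes was tested directly. In limma 0 of 19 member probe sets passed for the interaction, 0 had an unadjusted p under 0.05, and 0.0% of all 22519 tested probe sets passed, with 2643 at an unadjusted p under 0.05 and 45 passing with array quality weights. The nearest were 1429427_s_at and 1429428_at of Tcf7l2, at 0.35 ± 0.17 and 0.27 ± 0.14, with 1425229_a_at at 0.28 ± 0.15 and Cd44 by 1452483_a_at at -0.28 ± 0.14 (adjusted p 0.433, 0.463, 0.478 and 0.437). The genotype comparisons with and without Dox and the Dox comparisons share tumours pairwise, so their values are given side by side and not as separate evidence.

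**Figure D4:**
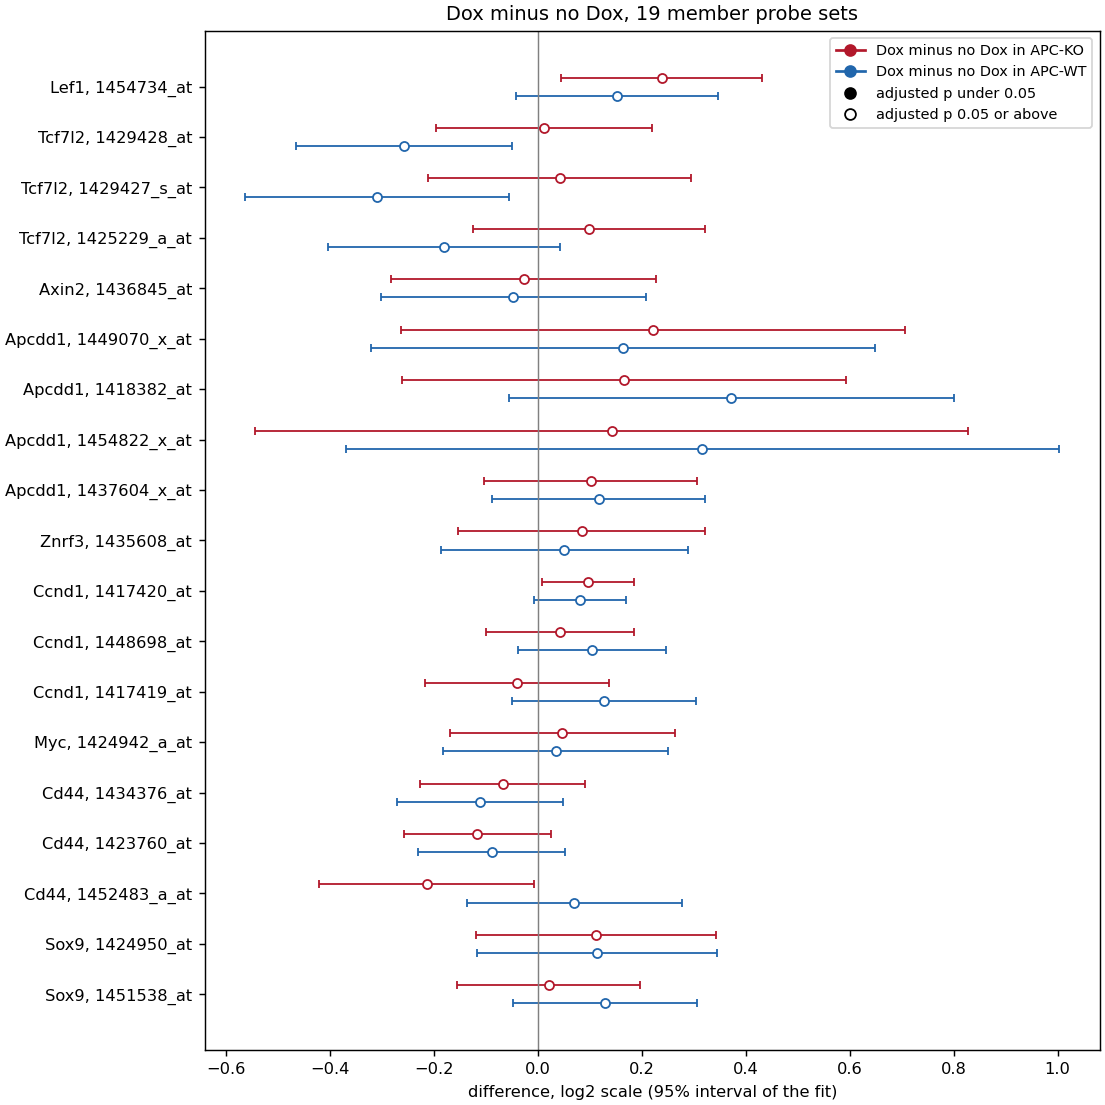
Dox minus no Dox differences on the log2 scale for the 19 tested probe sets, in APC-KO (red) and APC-WT (blue) tumours, with 95% intervals of the fit. All points are open, since 0 of 19 passed in either genotype, and the Tcf7l2 points of APC-WT tumours lie left of 0 while those of APC-KO tumours lie near it.

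Other Wnt target genes were read from a list. Of its 22 genes, 20 have a probe set and 7 were tested by their brightest. With Dox 0 of 7 passed in limma, and 0 had an unadjusted p under 0.05. Of all tested genes 32.8% had one there, by the brightest probe set. Without Dox 1 of the 7 was higher and 1 lower in APC-KO. By the brightest probe set 19.9% of all tested genes passed with Dox and 24.9% without, so 2 of 7 without Dox lies near the background. Jun, a component of the AP-1 transcription factor, read 10.46, 10.55 and 10.37 in APC-KO no Dox and 10.20, 10.19 and 10.34 in APC-WT no Dox tumours (0.22 ± 0.07, adjusted p 0.0301). Id2, an inhibitor of basic helix-loop-helix factors, read 8.53, 8.57 and 8.78 in APC-KO no Dox and 9.18, 8.94 and 9.07 in APC-WT no Dox tumours (-0.44 ± 0.12, adjusted p 0.0172). With Dox they stood at 0.06 ± 0.07 and -0.22 ± 0.12. The list's median was -0.10 with Dox and -0.13 without, against 0.01 and 0.00 over all tested probe sets.

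The other 13 target genes lay under the filter, and they include stem cell and feedback genes such as Lgr5, Ascl2, Nkd1, Notum, Dkk1 and Sp5. Fitted with no filter, 12 of them did not pass with or without Dox. The exception was Rnf43, the sister ligase of Znrf3, named here after its values had been seen. Its probe set 1427008_at read 5.11, 5.22 and 5.26 in APC-KO Dox against 4.10, 4.29 and 4.16 in APC-WT Dox tumours, and 5.49, 5.85 and 5.58 in APC-KO no Dox against 4.68, 4.31 and 4.01 in APC-WT no Dox tumours. The genotypes did not overlap, and the adjusted p in that fit was 0.000166 with Dox and 1.15e-05 without. All arrays but 2 lay under 5.55, so no size is given for the difference.

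The nuclear partners of the TCF/LEF factors were read from a second list. Ctnnb1, which encodes beta-catenin itself, was at -0.04 ± 0.03 with Dox and 0.01 ± 0.03 without, in a pathway where the protein rather than the RNA is known to be controlled. Of 17 tested partners, 2 were lower in APC-KO with Dox and 0 higher. Without Dox 2 were lower and 1 higher, and both counts lie near the shares of all tested genes given for the target list. Lower in both were Tle3, a Groucho corepressor that TCF proteins recruit, at -0.24 ± 0.06 with Dox and -0.22 ± 0.06 without (adjusted p 0.0101 and 0.0117), and Bcl9l, a coactivator that binds beta-catenin, at -0.24 ± 0.07 and -0.22 ± 0.07 (adjusted p 0.0239 and 0.0302). Bcl9, the sister of Bcl9l, was higher without Dox, at 0.24 ± 0.07 (adjusted p 0.0211), and at 0.18 ± 0.07 with Dox (adjusted p 0.0859). The median of the list was -0.02 with Dox and -0.06 without. The partner under the filter was Pygo1, which encodes a coactivator bound through BCL9 and is named here after its values had been seen. It read 3.54, 3.20 and 3.54 in APC-KO Dox against 4.29, 4.17 and 3.93 in APC-WT Dox tumours, and 3.71, 3.77 and 3.37 in APC-KO no Dox against 4.01, 3.97 and 3.50 in APC-WT no Dox tumours. Fitted with no filter it passed with Dox (adjusted p 0.00554) and not without (adjusted p 0.438), and since all 12 values lay under 5.55 no size is given.

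Among 7 tested paralogs of the members, Ccnd2 was higher in both Dox states, as given above. Sox4, a relative of Sox9, was lower with Dox, at -0.30 ± 0.08 (adjusted p 0.0234), and at -0.19 ± 0.08 without (adjusted p 0.119). Axin1, the relative of Axin2 that Wnt signalling is not known to induce, was at 0.05 ± 0.07 with Dox and 0.09 ± 0.07 without, and Mycn at 0.02 ± 0.09 and 0.10 ± 0.09. Between Dox and no Dox tumours 0 of the 31 tested genes of the 3 lists passed in limma in either genotype, with 6 at an unadjusted p under 0.05 in each, against 13.1% of all tested genes in APC-KO and 15.5% in APC-WT tumours.

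**Figure D5:**
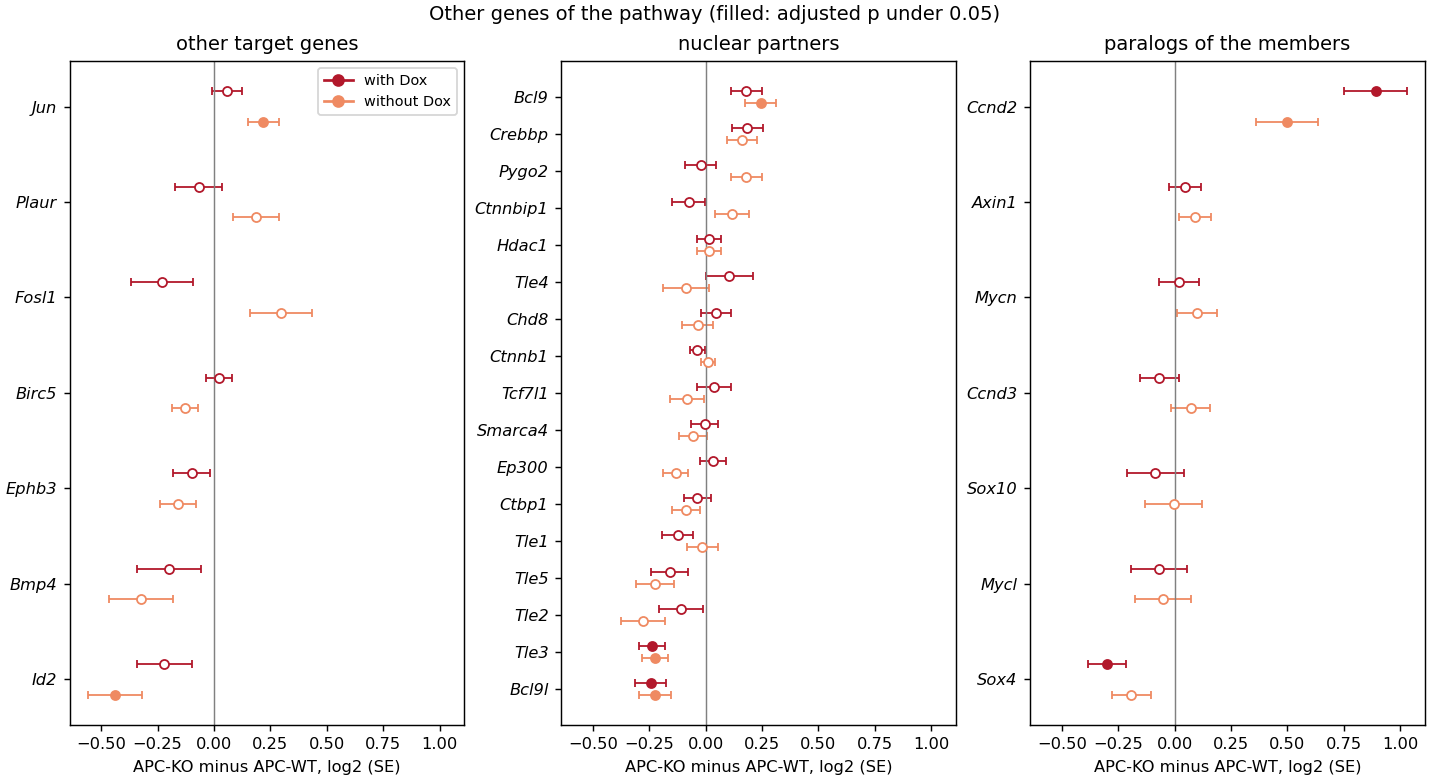
APC-KO minus APC-WT differences (log2, ± 1 standard error) for the tested genes of the 3 further lists, with Dox (dark) and without (light) and filled points where the adjusted p was under 0.05. Ccnd2 stands apart at the high end of the paralogs, and most nuclear partners lie within 0.25 of 0.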

How the data were processed

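RNA of 12 MC38 tumours had been measured on Affymetrix arrays. The deposited values are log2 expression values of the authors. MAS5 is the tool listed in the submitters' processing notes, without a version, and its settings are not stated there. The log2 scale was inferred from the range of the values, 1.86 to 14.16. Probe sets were named from GEO's platform annotation: of 45037 non-control probe sets 34945 have 1 gene symbol, 932 several and 9160 none, and 64 control probe sets were left out. Levels of different probe sets were not tested against each other. They were used across probe sets only for the filter, to pick the brightest probe set of a gene, and in the summed marker signals. Arrays have no read depth: their number limits the precision.

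A group-means model over all 12 arrays was fitted with limma 3.58.1 in R 4.3.3 (lmFit, eBayes with a trend) to the 22519 probe sets whose mean was at or above 5.55. The 6 contrasts named in the report were tested, 2-sided, with Benjamini-Hochberg adjustment over all tested probe sets and a threshold of 0.05. Values after ± are standard errors of the fit, with 3 tumours a group. For a group wholly under 5.55 a fold is a bound against that value. No scan date or slide was used here, so batches were not tested. The scripts were tested on simulated data. Figures were drawn with matplotlib 3.10.9. Alternatives were other filters, 1 value a gene, no trend, quantile normalization, array weights, a replicate block, only the groups compared, and each array left out.

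Every probe set of a member gene is named, with Apc and Tdo2, and up to 4 genes of each further list per comparison, by size among those that passed and then by p. Members and lists were chosen with earlier results of these data known. Replicate numbers were not treated as pairs.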

Additional observations from a re-analysis of the deposited data

How the results depend on the processing

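Of 53 member differences given in the text, 20 were past the threshold, 15 of them under every alternative in which they were tested, and 0 of the 20 changed sign. The 15 include the Apcdd1 calls in both Dox states. Those of 1418382_at and 1454822_x_at were countable only through the APC-WT group, where they are high. Of the 33 others, 4 passed under some alternative. The 9 probe sets past the threshold without Dox were 4 with the 75th percentile filter and 3 with the brightest probe set or the mean of probe sets of a gene. The 10 with Dox were 3 under each of these, and the 9 averaged over Dox states 5, 3 and 3, where fewer probe sets or genes were tested. Leaving out 1 array gave 6 to 9 without Dox, 8 to 11 with Dox and 9 to 11 averaged. For Dox in APC-KO and the interaction the count was 0 throughout. For Dox in APC-WT it was 2 with array weights and 0 to 2 with 1 array left out, the 2 without replicate 3 of APC-WT no Dox, where the cause was not tested.

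The differences that changed sign lay near 0 in the main fit, but not all did so under the alternatives, where 1429427_s_at without Dox reached -0.15. With array weights, APC-KO minus APC-WT without Dox was -0.061 for Axin2, -0.044 for Myc, 0.0020 for Znrf3, and -0.041 and -0.11 for Tcf7l2 by 1425229_a_at and 1429427_s_at, and Axin2 averaged over Dox states was -0.010. Quantile normalization gave -0.0077 for 1429427_s_at. The mean of probe sets gave 0.013 for Tcf7l2 without Dox and 0.0052 for Znrf3 with Dox. With 1 array left out, the ranges without Dox were -0.040 to 0.16 (Myc), -0.039 to 0.15 (Sox9 1424950_at), -0.045 to 0.12 (1425229_a_at), -0.15 to 0.12 (1429427_s_at), -0.16 to 0.073 (1429428_at) and -0.078 to 0.13 (Axin2). With Dox they were -0.0062 to 0.11 (Cd44 1423760_at), -0.019 to 0.14 (Cd44 1452483_a_at), -0.025 to 0.14 (Sox9 1424950_at), -0.18 to 0.067 (Znrf3) and -0.068 to 0.098 (Axin2). Axin2 averaged ran from -0.033 to 0.074, and Dox in APC-KO from -0.042 to 0.12 for 1429427_s_at and from -0.019 to 0.050 for 1429428_at. The cause of these changes was not tested.

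Deviations of same-numbered tumours from their group means correlated at r -0.14 to 0.14 over 18 pairs, of which 5 were over 0.1. Differently numbered tumours ran from -0.22 to 0.23 over 36 pairs, of which 5 were over 0.1. The medians were -0.01 and 0.01. A replicate block changed 0 of the 53 calls and gave 9 probe sets without Dox and 10 with Dox. Averaged over Dox states it gave 10, where the main fit gave 9. Over all probe sets, the 8 calls for Dox in APC-WT were 1071 with array weights, 0 with no trend and 0 to 705 with 1 array left out, and the 131 in APC-KO were 68 with no trend and 33 to 207 with 1 array left out. Between the genotypes with Dox 4414 passed, 6861 with array weights and 2737 to 4733 with 1 array left out. The interaction gave 0 to 273 with 1 array left out. Signal limits what can be said of the 8 member probe sets under the filter, for which no sizes are given.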
